A study of Homo sapiens with 2 samples.

Results

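Box H/ACA small nucleolar RNAs (symbols beginning SNORA) and small Cajal body RNAs (symbols beginning SCARNA) were examined in 786-O, a widely used human line grown from a clear cell carcinoma of the kidney, which lacks a working VHL tumour suppressor. A member was any symbol of the deposited gene tables that began with SNORA or SCARNA followed by a digit. This gave 132 of 22586 symbols, 108 SNORA and 24 SCARNA. Total RNA was sequenced from 1 culture in medium with 0 mM glucose (without glucose) and from 1 culture in medium with 25 mM glucose (with glucose). The labels also name the culture without glucose LucG and the culture with glucose LucF, but what these names stand for, and how long the cells went without glucose, are unknown here. Every difference below is therefore between 2 libraries of the line, with no replicate to show how much cultures of 1 kind vary.

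An H/ACA RNA folds into hairpins whose internal loops pair with a target RNA and place 1 of its uridines for conversion to pseudouridine by dyskerin, the enzyme of the particle. It ends in the trinucleotide ACA a few bases before its 3′ end, and in vertebrates most such RNAs are cut out of the introns of longer genes, so that precursor splicing releases them. SNORA RNAs reside in the nucleolus and mainly guide the modification of ribosomal RNA. Small Cajal body RNAs reside in Cajal bodies, nuclear sites of spliceosome maturation, and guide modification of the small nuclear RNAs; they can carry an H/ACA domain, a box C/D domain for 2′-O-methylation, or both. The ratio given throughout is the level without glucose over the level with glucose, and a positive log2 ratio is a higher level without glucose.

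The library without glucose held 31345828 counts and the library with glucose held 27317584. Levels are in CPM, counts per 1e6 of an effective library size computed by the TMM method. Each ratio is given with an exact 95% Clopper-Pearson interval. It covers counting error only, because each group had 1 library. It may be too narrow even for that where PCR duplicates count as separate reads. A symbol needed 20 counts in the 2 libraries together to be measured, and it was called higher or lower when its whole interval lay above 2-fold or below 0.5-fold. Because an equal mass of bulk RNA may come from unequal numbers of cells, fewer cells and less RNA per cell cannot be told apart here. Of the renal line markers, PAX8 stood at 233 CPM without glucose and 243 CPM with glucose, and VIM, KRT8 and KRT18 were above 100 CPM in both libraries. EPAS1, which encodes HIF-2 alpha, was at 424 CPM without glucose and 134 CPM with glucose and was called higher (log2 ratio 1.66, 1.61 to 1.72), while CA9, a target of hypoxia-inducible factors, had 0 counts without glucose and 4 with glucose. CDH6 was at 8.40 CPM without glucose and 191 CPM with glucose, LHX1 had 104 and 544 counts, and PAX2 had 37 and 67 counts. Markers of leukocytes, endothelium and the erythroid lineage had 0 to 9 counts each, while the fibroblast marker LUM had 100 counts without glucose and 295 with glucose, DCN had 5 and 3, and COL1A1 had 86 and 112; the part of these differences in the results below was not tested.

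Most member sequences carry the ACA of their class. By RefSeq accession or symbol, 124 of the 132 members matched a transcript of the GENCODE annotation (build GRCh38), and the letters ACA were searched on the transcript strand within the last 8 bases. They were found in 95 of 103 SNORA sequences (92.2%) and in 15 of 21 SCARNA sequences (71.4%), against 14 of 288 box C/D (SNORD) transcripts (4.86%), a class that does not carry this box. The SCARNA sequences without these letters were SCARNA2, SCARNA7 and SCARNA17, of box C/D type, and SCARNA5, SCARNA6 and SCARNA10, which have both domains. The following members are shown because they had the highest ratios, ratios near 1, or the most divergent gene around them, and capitals mark the ACA found nearest the 3′ end. No sequence was matched to SCARNA27. SNORA23, SNORA41, SNORA80B and SCARNA18 were higher without glucose, SNORA32 and SCARNA21 had ratios near 1, and SNORA13 lies in the gene with the highest ratio of any that holds a member. In GRCh38 they lie at chr11:9428773-9428954, plus strand (SNORA23), chr2:206162228-206162359, plus strand (SNORA41), chr2:10446714-10446849, minus strand (SNORA80B), chr5:83064204-83064337, minus strand (SCARNA18), chr11:93730979-93731099, minus strand (SNORA32), chr17:7906122-7906260, plus strand (SCARNA21) and chr5:112161485-112161617, plus strand (SNORA13).
SNORA23: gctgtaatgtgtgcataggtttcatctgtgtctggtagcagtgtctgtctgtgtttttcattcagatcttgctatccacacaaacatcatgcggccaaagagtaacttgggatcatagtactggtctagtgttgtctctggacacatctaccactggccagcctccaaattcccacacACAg
SNORA41: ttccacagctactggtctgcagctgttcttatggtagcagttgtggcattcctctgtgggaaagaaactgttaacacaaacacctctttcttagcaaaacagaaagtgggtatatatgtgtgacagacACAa
SNORA80B: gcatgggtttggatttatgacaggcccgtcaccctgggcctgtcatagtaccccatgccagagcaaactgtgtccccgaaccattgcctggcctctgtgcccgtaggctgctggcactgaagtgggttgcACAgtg
SCARNA18: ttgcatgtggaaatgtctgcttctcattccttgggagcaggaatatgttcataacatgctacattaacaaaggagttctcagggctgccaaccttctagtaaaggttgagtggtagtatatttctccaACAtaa
SNORA32: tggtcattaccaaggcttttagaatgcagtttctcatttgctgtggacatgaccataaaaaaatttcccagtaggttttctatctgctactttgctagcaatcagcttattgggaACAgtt
SCARNA21: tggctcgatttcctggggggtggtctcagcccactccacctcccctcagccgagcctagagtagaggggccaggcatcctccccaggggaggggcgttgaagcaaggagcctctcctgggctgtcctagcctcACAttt
SNORA13: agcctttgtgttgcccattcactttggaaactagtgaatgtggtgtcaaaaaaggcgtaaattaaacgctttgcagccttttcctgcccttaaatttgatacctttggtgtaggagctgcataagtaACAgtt

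As a group the members were more abundant without glucose. They took 3.95% of all counts without glucose (interval 3.94 to 3.95%) and 2.62% with glucose (2.62 to 2.63%), or 1236993 and 716641 counts. Scaled to effective library size, the summed level was 1.58-fold as high without glucose. Of the 132 members, 116 were measured, 92 SNORA and all 24 SCARNA. Their median log2 ratio was 0.63, a 1.55-fold higher level without glucose, with quartiles of 0.49 and 0.83. Over all 14239 measured symbols the median was 0.03.

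By the 2-fold rule, 6 members were called higher without glucose, 0 were called lower and 110 were neither. Over all measured symbols the same rule called 3.91% higher and 6.05% lower, so the members' share called higher is close to the background. Without a fold requirement, the interval lay wholly above 1 for 111 members and wholly below 1 for 0, where 38.2% and 35.9% of all measured symbols did so. The interval spanned 1 for SNORA36C, SCARNA21, SNORA78, SCARNA17 and SNORA5B. With the requirement set to 1.5-fold, 56 members passed higher and 0 passed lower, against 10.6% and 12.2% of all measured symbols. The interval of 97 members lay wholly inside 2-fold either way, which held for 68.7% of all measured symbols.

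The spread among members was smaller than among all measured symbols, but like that among box C/D (SNORD) genes. The interquartile range of the log2 ratio was 0.35 over the 116 measured members and 0.87 over all measured symbols. This range was also 0.35 over the 156 measured SNORD genes. Among genes with at least 500 counts over both libraries it was 0.35 for 106 members and 0.76 for 9918 others. The order of levels was nearly the same in both libraries, with a Spearman correlation of 0.994 across the 116 measured members and 0.951 across all other measured symbols, given as a description because genes of 1 library share its depth and preparation. Ratios showed little relation to member length (Spearman 0.17, n = 116), GC content (-0.05, n = 113) or level (0.12, n = 116), again as descriptions.

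**Figure D1:**
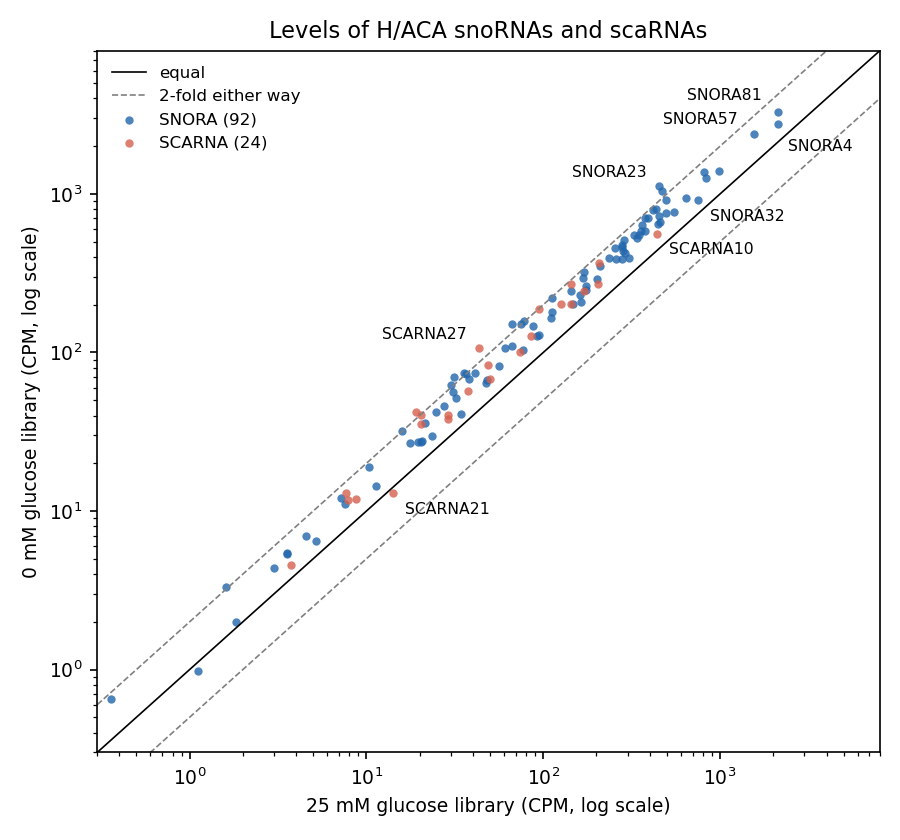
Level of each measured member without glucose (vertical axis, CPM, log scale) against its level with glucose (horizontal axis, CPM, log scale), 1 point a member, with SNORA and SCARNA in separate colours; the lines mark equal levels and 2-fold differences. Nearly all points lie between the line of equal levels and the line of 2-fold higher without glucose, at all levels from below 1 to above 1000 CPM.

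Among the SNORA RNAs, guides of ribosomal RNA modification, the most counted had ratios at or below the group's median. SNORA81 had 100543 counts without glucose and 59800 with glucose, or 3285 and 2137 CPM, a log2 ratio of 0.62 (0.61 to 0.63). SNORA4 had 84356 and 59529 counts, 2757 and 2127 CPM, a log2 ratio of 0.37 (0.36 to 0.39). SNORA57 had 73091 and 43565 counts, 2388 and 1557 CPM, a log2 ratio of 0.62 (0.60 to 0.63). These 3 were the only members above 1000 CPM with glucose, whereas 8 members were above it without glucose.

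The remaining members among the 10 most counted in either library were SNORA65, SNORA27, SNORA45, SNORA23, SNORA84, SNORA42, SNORA74A, SNORA32 and SNORA24. SNORA65, inside the ribosomal protein gene RPL12, was at 1390 CPM without glucose and 991 CPM with glucose (log2 ratio 0.49). SNORA27, in RPL21, was at 1378 and 812 CPM (0.76), and SNORA45, in RPL27A, at 1251 and 831 CPM (0.59). The intervals of all 3 lay above a ratio of 1, and none passed 2-fold. SNORA42, in KIAA0907, was at 942 and 640 CPM (0.56), SNORA74A, a form of the U19 RNA, in MATR3, was at 916 and 497 CPM (0.88), and SNORA24, in SNHG8, was at 765 and 550 CPM (0.47). SNORA32 was the abundant member with the ratio nearest 1, at 915 CPM without glucose and 749 CPM with glucose (log2 ratio 0.29, 0.26 to 0.31). The 5 most counted members held 27.7% of all member counts without glucose and 29.8% with glucose, and 15 members held 50% of them in each library.

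Of the 6 members called higher, 4 were SNORA RNAs. SNORA23, in the nuclear import receptor gene IPO7, had 34579 counts without glucose and 12625 with glucose, or 1130 and 451 CPM, a log2 ratio of 1.32 (1.29 to 1.35) and the highest of all members. SNORA84, in the isoleucyl-tRNA synthetase gene IARS, had 32138 and 13088 counts, 1050 and 468 CPM, a 2.25-fold higher level (log2 ratio 1.17). SNORA41, in the translation elongation factor gene EEF1B2, had 4634 and 1874 counts, 151 and 67.0 CPM, a log2 ratio of 1.18 (1.10 to 1.26). These differences were many times their counting intervals, and the variation between cultures was not measured. SNORA80B, in the ornithine decarboxylase gene ODC1, had 2134 and 872 counts, 69.7 and 31.2 CPM, a log2 ratio of 1.16 (1.05 to 1.28). A further 7 members had ratios of 2-fold or more with intervals that reached below it: SNORA47, SNORA71A, SNORA50, SNORA80, SNORA12, SNORA2A and SNORA74B, with log2 ratios of 1.01 to 1.05. The ratios of 99 measured members, 85.3%, lay from 1.2-fold to below 2-fold, and 4 lay below 1.2-fold.

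Among members with at least 500 counts over both libraries, the 5 with ratios nearest 1 were SCARNA21, SNORA11, SNORA32, SNORA11B and SNORA52. SNORA11, in the X-linked gene MAGED2, had 1254 counts without glucose and 957 with glucose (log2 ratio 0.26, 0.14 to 0.38). SNORA11B had 438 and 316 counts (0.34, 0.13 to 0.56), and SNORA52 had 6387 and 4599 counts (0.34, 0.29 to 0.40). The intervals of these 3 lay above a ratio of 1, and that of SCARNA21 spanned it.

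The 24 small Cajal body RNAs were all measured and had a median log2 ratio of 0.57, with 2 called higher, 0 lower, and 22 with an interval above 1; the 92 measured SNORA RNAs had a median of 0.66, with 4 called higher, 0 lower, and 89 with an interval above 1. Summed, the SCARNA RNAs took 0.303% of counts without glucose and 0.207% with glucose. By box type, the median was 0.59 over 14 SCARNA RNAs with a single H/ACA domain and no box C/D domain. It was 0.48 over 5 of box C/D type and 0.47 over 4 with both domains. SCARNA13, which holds a pair of H/ACA domains and guides modification of U2 and U5, was at 203 CPM without glucose and 125 CPM with glucose (0.69, 0.63 to 0.75). The class medians lie within the spread of the members of each, with ranges of 0.28 to 0.99 for box C/D and 0.36 to 0.83 for both domains.

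Called higher among H/ACA scaRNAs were SCARNA27 and SCARNA18. SCARNA27 had 3276 counts without glucose and 1211 with glucose, 107 and 43.3 CPM, a log2 ratio of 1.31 (1.21 to 1.40). SCARNA18 had 1286 and 530 counts, 42.0 and 18.9 CPM, a log2 ratio of 1.15 (1.003 to 1.30) whose lower bound sits at the 2-fold line. SCARNA20 followed with 40.1 CPM without glucose and 20.4 CPM with glucose (0.98, 0.83 to 1.12). At the other end SCARNA21, a guide for the minor spliceosomal RNA U12, had 398 counts without glucose and 394 with glucose, 13.0 and 14.1 CPM, a log2 ratio of -0.11 (-0.32 to 0.09), so that no difference was detectable at this depth. It and SNORA36C, with 30 and 31 counts (-0.18, -0.95 to 0.60), were the only measured members with a ratio below 1.

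The other H/ACA scaRNAs lay between these. Those that guide U2 modification were SCARNA1 (203 CPM without glucose, 143 CPM with glucose, log2 ratio 0.51), SCARNA4 (101 and 74.2 CPM, 0.44), SCARNA8 (35.6 and 20.3 CPM, 0.81), SCARNA14 (2072 and 1399 counts, 0.44) and SCARNA15 (11.7 and 7.90 CPM, 0.57). SCARNA16, a guide for U1, was at 83.2 and 48.5 CPM (0.78), and SCARNA11, a guide for U5, was at 57.0 and 37.3 CPM (0.61). The intervals of all 7 lay above a ratio of 1 and none passed 2-fold. SCARNA3 was at 126 and 84.9 CPM (0.57), SCARNA22 at 38.0 and 28.9 CPM (0.40), and SCARNA23 at 13.0 and 7.65 CPM (0.77).

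Of the scaRNAs with a box C/D domain, which direct 2′-O-methylation, SCARNA2 and SCARNA7 had the highest ratios. SCARNA2, a guide for U2, was at 188 CPM without glucose and 94.6 CPM with glucose (log2 ratio 0.99, 0.92 to 1.05), and SCARNA7, a guide for U1, was at 272 and 143 CPM (0.93, 0.87 to 0.98). SCARNA9 was at 40.2 and 28.8 CPM (0.48), its X-linked copy SCARNA9L at 11.9 and 8.76 CPM (0.45), and SCARNA17, a guide for U4, at 4.54 and 3.75 CPM (0.28, -0.10 to 0.66). The interval of SCARNA17 spans 1, so a difference was not detectable for it. The 4 scaRNAs with both domains guide U5 modification and include the most abundant of the class, SCARNA10, at 563 CPM without glucose and 439 CPM with glucose (0.36, 0.33 to 0.39). SCARNA5 was at 369 and 208 CPM (0.83), SCARNA6 at 244 and 169 CPM (0.53) and SCARNA12 at 270 and 204 CPM (0.41). SCARNA5 and SCARNA6 lie inside 1 gene, the autophagy gene ATG16L1, and their intervals of 0.78 to 0.88 and 0.47 to 0.58 do not overlap.

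**Figure D2:**
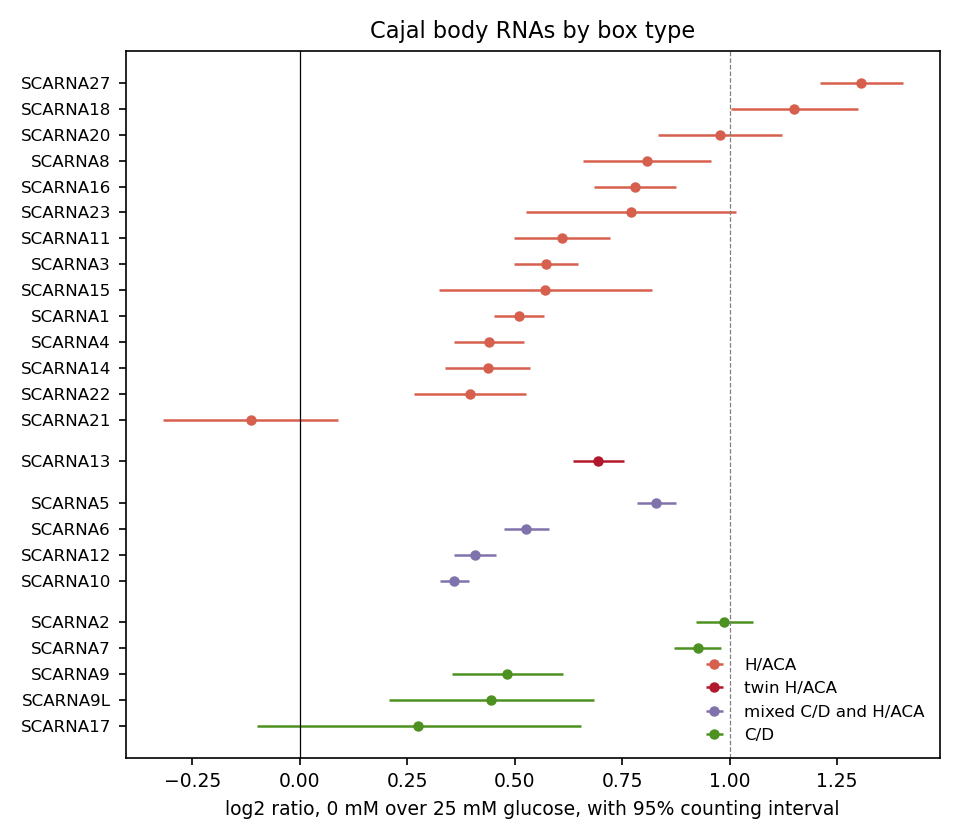
Log2 ratio of the 24 SCARNA members (horizontal axis, 0 mM over 25 mM glucose), 1 row a member, grouped by box type, with bars for the 95% counting interval. SCARNA27 and SCARNA18 lie wholly above 2-fold, the intervals of SCARNA2, SCARNA20 and SCARNA23 cross the 2-fold line, those of SCARNA21 and SCARNA17 span a ratio of 1, and the other intervals lie between these lines.

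The closest class of small RNA, the box C/D (SNORD) genes, had a smaller ratio than the members. Their median log2 ratio was 0.32 over 156 measured of 260, with 0 called higher and 1 lower, 15 above 1.5-fold, and 119 with an interval above 1 and 6 below. They took 3.62% of counts without glucose and 2.93% with glucose, a summed level 1.30-fold as high, against 1.58-fold for SNORA RNAs. This difference could not be tested with 1 library a group.

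**Figure D3:**
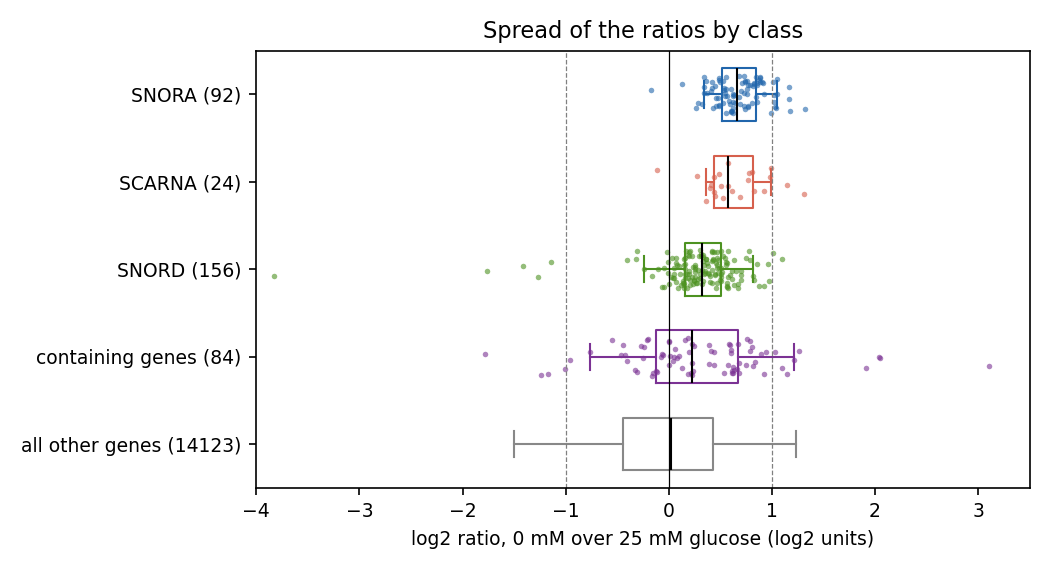
Log2 ratio (0 mM over 25 mM glucose) for SNORA, SCARNA, SNORD, the genes that contain members, and all measured genes other than members; boxes give quartiles with medians, whiskers reach the 5th and 95th percentiles, and points are single genes, drawn for all but the last row. The SNORA and SCARNA boxes (medians 0.66 and 0.57) sit above that of SNORD genes (0.32), and all 3 are narrower than those of the containing genes (0.22) and of all other genes (0.02).

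Most members lie inside a longer gene of the same strand, and their ratios did not track those of the genes around them. A containing gene with a measured ratio was found for 105 measured members, in 84 genes. These genes had a median log2 ratio of 0.22, with an interquartile range of 0.79 and a range from -1.78 in NCAPD2 to 3.10 in NCRNA00219. Of the 84, 7 were called higher and 3 lower, where the rule called 3.91% and 6.05% of all measured symbols. The members inside them had an interquartile range of 0.35. Across the 105 pairs the Pearson correlation of the member's and the gene's log2 ratio was 0.14 and the Spearman correlation 0.10, a description over pairs that share libraries and, in part, genes; without the pairs of the 2 most extreme genes the Pearson value was 0.093 (n = 103). The member's ratio was above that of its gene in 71 pairs and below it in 34, with a median difference of 0.36, and the counting intervals of member and gene did not overlap in 68 and 24 of these. The members' median of 0.63 lies above the upper quartile of 0.43 over all measured symbols. How often members lie above, or apart from, genes that do not contain them was not tested, so these counts are descriptions only. Where member and gene share reads, the gene's own ratio cannot be told apart from the member's. As a rough flag, 25 genes were marked whose members' summed counts were from 50% to all of the gene's own in at least 1 library. The flag is imprecise: in NCAPD2, SCARNA10 had 17215 counts without glucose against 4581 for the gene. Genes that were not flagged may also share reads. The value without the 25 flagged genes is in the closing section.

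Genes called lower without glucose held members that were not lower, and 0 of all 116 measured members were called lower. NCAPD2, which encodes a condensin subunit, was at 150 CPM without glucose and 515 CPM with glucose (log2 ratio -1.78), and its SCARNA10 had a ratio of 0.36. CHD4, a chromatin remodeller, was at 222 and 524 CPM (-1.24), and its SCARNA11 had a ratio of 0.61. POLA1, the catalytic subunit of DNA polymerase alpha, was at 47.0 and 106 CPM (-1.17), and its SCARNA23 had a ratio of 0.77. In each case member and gene lay on opposite sides of 1. Of 32 members in genes with a ratio below 1, 31 had a ratio above 1, the exception being SCARNA21 in CHD3, a gene at 142 and 241 CPM (-0.77). Among all 116 measured members only SCARNA21 and SNORA36C had a ratio below 1. The 31 of 32 is thus close to the share over all members and shows nothing particular to members in such genes. SCARNA22 in WHSC1 was among the 31, at 0.40, in a gene at 309 and 621 CPM (0.499-fold).

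In the genes called higher, each of the 9 members had a smaller ratio than its gene. These genes were picked for ratios above 2-fold, while the upper quartile of the members' log2 ratios was 0.83. A smaller ratio in the member was thus likely from the choice of genes alone. NCRNA00219, a noncoding host gene, was at 57.7 CPM without glucose and 6.72 CPM with glucose (log2 ratio 3.10), and its SNORA13, chosen for description after its values were seen, was at 702 and 391 CPM (0.84, 0.81 to 0.88). SNHG12, a noncoding host gene, was at 40.4 and 10.7 CPM (1.91), and its SNORA44, SNORA16A and SNORA61 had ratios of 0.70, 0.62 and 0.60. SNHG8 was at 77.5 and 18.9 CPM (2.04), and its SNORA24 had a ratio of 0.47. C7orf40 had a ratio of 2.04 and its SNORA9 one of 0.77. RPL21 had a ratio of 1.14 beside 0.76 for SNORA27, and POR, cytochrome P450 reductase, 1.10 beside 0.88 for SNORA14A. The closest pair was ODC1, at 399.6 and 166.7 CPM (1.26), with SNORA80B (1.16). The median over the 9 members in genes called higher was 0.76, over the 3 in genes called lower 0.61, and over the 93 in the rest 0.68. It was 0.61 over 18 members in ribosomal protein genes, 0.69 over 87 in other genes and 0.54 over 11 with no containing gene among the tables' models, which include the 6 members in GENCODE's TAF1D.

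**Figure D4:**
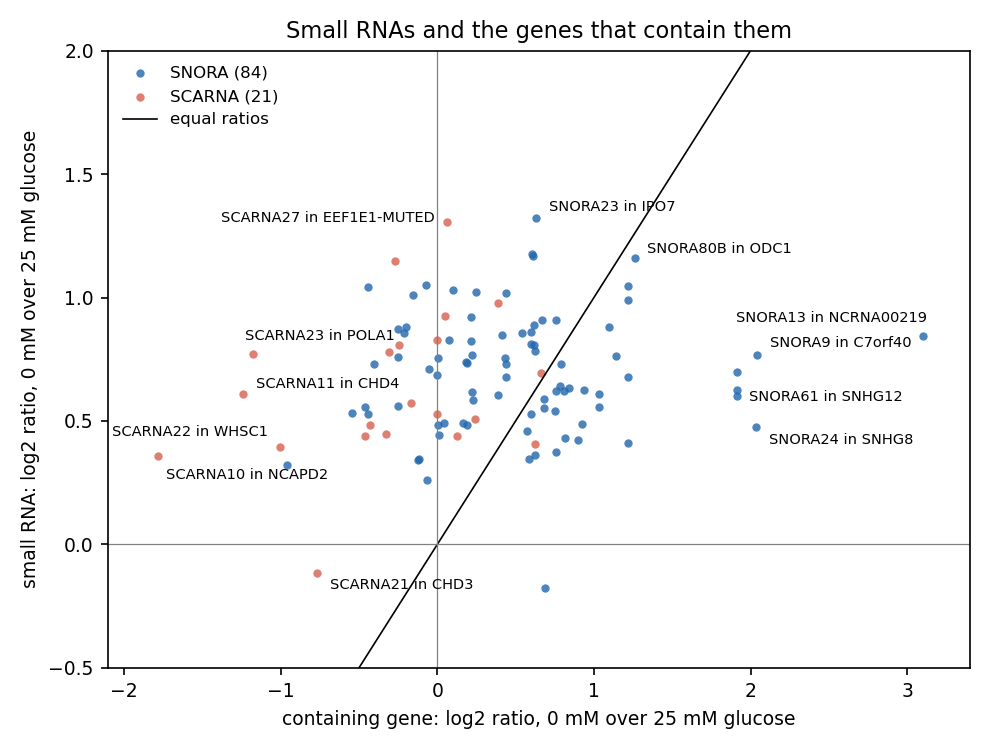
Log2 ratio of each member (vertical axis) against that of the gene that contains it (horizontal axis), both 0 mM over 25 mM glucose, for 105 pairs; the diagonal marks equal ratios. The members form a flat band across genes that range from -1.78 to 3.10.

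Members were dense relative to the genes around them. Per kilobase of gene model, the median member had 23.2 times the counts of its gene without glucose and 14.98 times with glucose, and 77 members had at least 5 times in both libraries. SNORA4 was the densest, at 20269 CPM per kilobase without glucose and 15643 CPM per kilobase with glucose, ahead of SNORA81 at 18562 and 12074 CPM per kilobase. A density below that of the gene in at least 1 library was seen for 4 members, SNORA15, SNORA36C, SNORA38 and SNORA5B, and the part of precursor reads in their counts was not tested.

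Members that share a gene differed among themselves. In 15 genes with more than 1 measured member, holding 36 members, the range of log2 ratios within a gene had a median of 0.28, a lowest value of 0.04 in RPL27A and a highest of 0.64 in LOC388796. The translation initiation factor gene EIF4A2, at 397 CPM without glucose and 234 CPM with glucose (0.76), holds SNORA63 at 702 and 374 CPM (0.91, 0.87 to 0.94), SNORA81 at 0.62 and SNORA4 at 0.37, with intervals that do not overlap. On chromosome 11 a cluster of 6 members, SNORA25, SNORA32, SNORA1, SNORA8, SNORA18 and SNORA40, spans 4721 bases. In GENCODE (GRCh38) all 6 lie within exons of transcripts of TAF1D, which encodes a subunit of the RNA polymerase I selectivity factor; the shorter TAF1D model of the deposited tables starts 694 bases beyond the cluster, so they are not among the 105 pairs. Their log2 ratios were 0.46, 0.29, 0.62, 0.74, 0.54 and 0.54, while that TAF1D model was at 161 and 58.6 CPM (1.46, 1.38 to 1.54). Both groups were picked after their values were seen.

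LOC388796 showed the widest range within a gene, over 4 copies of 1 RNA. SNORA71A was at 62.3 CPM without glucose and 30.1 CPM with glucose (log2 ratio 1.05, 0.93 to 1.17), and SNORA71D at 222 and 112 CPM (0.99, 0.93 to 1.05). SNORA71B was at 553 and 346 CPM (0.68, 0.64 to 0.71), and SNORA71C at 27.6 and 20.7 CPM (0.41, 0.26 to 0.57). SNORA71A and SNORA71D had higher ratios than SNORA71B and SNORA71C, with intervals that do not overlap between these pairs. SNORA71B and SNORA71D match at 90.3% of positions, so reads may be split between them and their separate values are uncertain. SNORA71A (chr20:38427309-38427442, minus strand) and SNORA71C (chr20:38429670-38429803, minus strand) had the highest and lowest ratio and match at 84.3% of positions. They are shown to mark where they differ: capitals are the 21 positions of each without an identical partner in the alignment.
SNORA71A: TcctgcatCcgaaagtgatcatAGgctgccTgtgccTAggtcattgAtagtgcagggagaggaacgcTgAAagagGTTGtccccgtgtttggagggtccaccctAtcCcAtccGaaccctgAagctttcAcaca
SNORA71C: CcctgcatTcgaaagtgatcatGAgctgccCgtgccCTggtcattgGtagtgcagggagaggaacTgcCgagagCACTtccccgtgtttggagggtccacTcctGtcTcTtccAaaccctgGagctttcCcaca

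**Figure D5:**
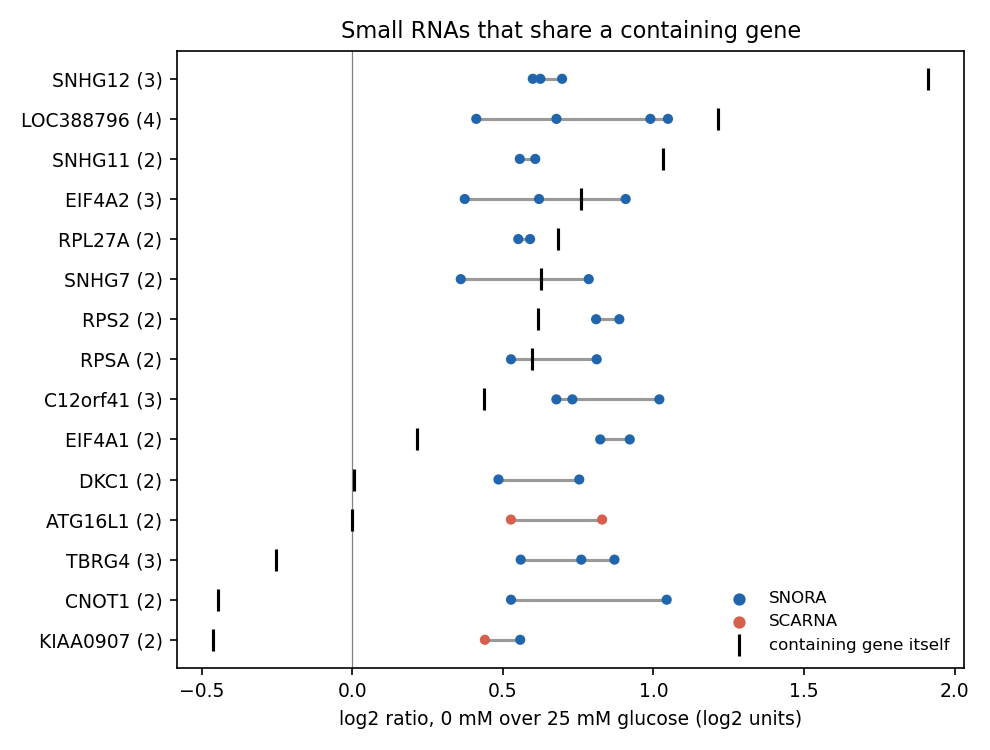
Log2 ratio (horizontal axis, 0 mM over 25 mM glucose) of members that share a containing gene, 1 row a gene, with points for members and a separate mark for the gene. The range within LOC388796 (0.64) is the widest and that within RPL27A (0.04) the narrowest.

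Close copies elsewhere may also split reads, and their separate values are likewise uncertain. SNORA7A and SNORA7B match at 98.6% of positions and had log2 ratios of 0.42 and 0.61, and SNORA36A and SNORA36C match at 97.0% and had 0.75 and -0.18. SNORA80 and SNORA80B match at 91.9%, with 1.03 and 1.16, and SNORA14A and SNORA14B at 91.1%, with 0.88 and 0.46. In total 13 members have a copy of at least 90% identity, 11 of them measured. The authors' treatment of reads with several places in the genome is unknown here.

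Rows for 4 microRNAs lie inside members, and RefSeq places their mature sequences there; they are shown because the small RNA and the microRNA cannot be told apart in these counts. MIR1248 in SNORA81 had 65057 counts without glucose and 38863 with glucose, 64.7% and 65.0% of the member's count. MIR3651 in SNORA84 had 30219 and 12239 counts, 94.03% and 93.5%. MIR1291 in SNORA34 had 2125 and 1173 counts, 47.6% and 47.7%, and MIR664 in SNORA36B had 344 and 189 counts, 93.5% and 93.6%. The shares in the libraries were within 1 percentage point of each other, and each microRNA row had nearly the log2 ratio of its member: 0.61 beside 0.62, 1.17 beside 1.17, 0.73 beside 0.73 and 0.73 beside 0.74. Capitals mark the mature microRNA, and in SNORA36B both of its arms. In GRCh38 the members lie at chr3:186786675-186786852, plus strand (SNORA81), chr9:92292461-92292593, minus strand (SNORA84), chr12:48654382-48654518, minus strand (SNORA34) and chr1:220200546-220200676, minus strand (SNORA36B).
SNORA81: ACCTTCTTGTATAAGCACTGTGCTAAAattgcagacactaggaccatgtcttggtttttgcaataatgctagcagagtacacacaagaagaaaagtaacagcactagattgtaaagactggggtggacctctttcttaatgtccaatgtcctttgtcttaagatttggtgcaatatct
SNORA84: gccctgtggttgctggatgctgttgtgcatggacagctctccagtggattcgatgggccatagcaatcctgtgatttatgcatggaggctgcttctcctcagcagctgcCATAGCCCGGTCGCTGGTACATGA
SNORA34: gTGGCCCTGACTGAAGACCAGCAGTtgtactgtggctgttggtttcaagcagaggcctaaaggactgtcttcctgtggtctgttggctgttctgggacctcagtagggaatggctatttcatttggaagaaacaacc
SNORA36B: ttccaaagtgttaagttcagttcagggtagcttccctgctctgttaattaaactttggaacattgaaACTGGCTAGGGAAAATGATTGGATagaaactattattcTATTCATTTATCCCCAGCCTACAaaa

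The protein partners had ratios on both sides of 1, with a median near it. Of 12 measured genes for H/ACA particle proteins and their assembly factors, 0 were called higher and 0 lower, and the median log2 ratio was 0.04. The interval lay wholly above 1 for 5 of them and wholly below for 4, where 38.2% and 35.9% of all measured symbols did so. With 3.91% of all measured symbols called higher and 6.05% lower, a count of 0 in a list this short, or in the 3 lists that follow, is near the background. DKC1, dyskerin, the pseudouridine synthase of the particle, was at 154.7 CPM without glucose and 154.2 CPM with glucose (0.00, -0.06 to 0.06); a difference was not detectable. The other core proteins had small positive log2 ratios, with NOP10 at 57.9 and 43.2 CPM (0.42, 0.32 to 0.53), NHP2 at 1224 and 818 counts (0.45, 0.32 to 0.58) and GAR1 at 26.3 and 23.1 CPM (0.19, 0.03 to 0.34). Among assembly factors NAF1 (0.39), SHQ1 (0.08), PIH1D1 (-0.10) and NOLC1 (-0.06) had log2 ratios between -0.10 and 0.39, and RUVBL1 (-0.41), RUVBL2 (-0.44) and TCOF1 (-0.56) had negative ones. NUFIP1, at 118 and 50 counts (1.11, 0.62 to 1.62), was past 1.5-fold but not 2-fold. DKC1 itself contains SNORA36A, which was at 46.1 and 27.3 CPM (0.75) beside 0.00 for its gene.

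Of 15 measured genes of Cajal bodies and telomerase, 0 were called, with a median of 0.08. WRAP53, the protein that brings scaRNAs and telomerase RNA to Cajal bodies, was at 13.6 CPM without glucose and 26.9 CPM with glucose (-0.98, -1.16 to -0.81), which passed the 1.5-fold but not the 2-fold rule. COIL, coilin, the scaffold of the Cajal body, was at 23.8 and 25.6 CPM (-0.11, -0.26 to 0.04). TERC, the telomerase RNA, which ends in an H/ACA domain, was at 32.7 and 20.9 CPM (0.64, 0.49 to 0.79), close to the median of the SNORA RNAs, and TERT, the telomerase enzyme, had 93 and 127 counts (-0.58, -0.98 to -0.18). The remaining genes of the list had ratios from -0.30 (GEMIN4) to 0.58 (USPL1). The 4 box C/D proteins had a median of 0.07 and 0 called.

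Other noncoding RNAs, 16 measured with TERC again among them, had a median of 0.30 and 0 called. Of the 16, RNU5D and RNU5E had the same counts, 53 without glucose and 36 with glucose. The highest ratio was that of RNU86, with 105 counts without glucose and 39 with glucose (1.30, 0.76 to 1.87), which passed the 1.5-fold rule. RMRP, the RNA of RNase MRP, had 144210 counts without glucose and 97410 with glucose (0.44), and RPPH1, the RNA of RNase P, had 51913 and 33402 (0.51). MALAT1 had a ratio of 0.28, and the vault RNAs VTRNA1-1, VTRNA1-2 and VTRNA1-3 had 0.10, 0.17 and 0.16. Of the minor spliceosomal RNAs, RNU11 and RNU12 had 0.01 and -0.10, with intervals that spanned a ratio of 1. RNU4ATAC had 0.39 (0.24 to 0.54) and RNU6ATAC 0.09 (0.03 to 0.14), with intervals above it. A contribution of RNA make-up or library preparation to the members' shift was not tested.

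The 16 members under 20 counts gave no ratio. Of these, 8 had 0 counts in both libraries: SNORA35, SNORA59A, SNORA59B, SNORA70E and 4 rows of SNORA11D and SNORA11E. The other 8 had a few counts each: SNORA29 had 6 and 6, SNORA16B 6 and 3, SNORA70B 3 and 5, SNORA70C 5 and 2, SNORA70D 3 and 2, SNORA70F 0 and 5, SNORA70G 2 and 0, and SNORA11C 1 and 0 (without and with glucose). A count of 0 allows up to 3 counts.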

How the data were processed

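Total RNA of 2 cultures, extracted with Trizol per the labels' protocols, was sequenced, 1 library a group. Groups come from the titles. The deposited counts are whole numbers per gene model, without normalization per the file headers. Per the file headers the tables also hold RPKM values, which the authors scaled to gene length and library size and which served here as a check of the counts. Coordinates were hg19, per the submitters' processing notes. The aligner, counting program, strand use, library kit and read length are unstated in the sources.

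Rows repeated at 1 place were dropped (536) and the rest summed per symbol. TMM factors (edgeR 4.0.16, R 4.3.3) were 0.976 without glucose and 1.02 with glucose. Ratios, Clopper-Pearson intervals and figures used Python 3.11.15, scipy 1.17.1 and matplotlib 3.10.9. Containing genes share the member's chromosome and strand, enclose it, are at least 5 times as long and are no small RNA; among several, the most counted was taken. Sequences came from GENCODE transcripts, aligned with Biopython 1.88, and mature microRNAs from RefSeq. Each gene model gives 1 count, so precursor and mature reads over a member cannot be told apart.

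Named members are those called with at least 10 CPM, the 10 most counted in each library, every SCARNA with at least 20 counts and the 5 nearest a ratio of 1 with at least 500 counts; others were chosen after their values were seen. Members and lists were chosen with earlier results of these data known. Scalings, count minimums, a pseudocount and other folds were tried as alternatives. Counts over 14106 genes were simulated for the comparison without over with glucose, with counting error only and no variation between cultures. In them the 2-fold rule found 37 of 40 genes changed 4-fold and 0 of 39 changed 1.5-fold. How the rule fares when cultures vary was not tested.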

Additional observations from a re-analysis of the deposited data

How the results depend on the processing

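No paired analysis was possible because only 1 library stood in each group, which also left no replicate to leave out. Of 76 values recomputed under alternatives, 72 kept their direction and moved by no more than a set tolerance: 1.5 times for a count of calls, 0.072 for a median log2 ratio (the median half-width of the members' intervals) and 0.01 for the ratio of shares. The 72 include values that could not move. No scaling can change the difference between a member and its gene, and keeping main chromosomes only left the effective library sizes the same. Scaling by total counts shifted the medians of members and SNORD genes by -0.069, just inside the tolerance. The number of members called higher was 6, 56 with the interval past 1.5-fold and 0 past 3-fold. With 1 CPM added to both libraries it was 10, but that alternative calls on the ratio alone and drops the interval, and the 4 gained (SNORA2A, SNORA50, SNORA71A and SNORA80) have intervals that reach below 2-fold. Scaling by total counts gave 4 (losing SCARNA18 and SNORA80B), upper quartile scaling 5 (losing SCARNA18), and leaving out near-identical copies, or members under 5 times the density of their gene, 5 (leaving out SNORA80B). The median difference between a member and its containing gene was 0.28 (n = 76) without the 25 containing genes roughly flagged for shared reads. This alternative was chosen after seeing the data. Over the 10 alternatives run for it, the median log2 ratio was 0.56 to 0.68 for all members, 0.59 to 0.68 for SNORA and 0.50 to 0.63 for SCARNA. For SNORD genes it was 0.25 to 0.34 over the 6 run, which were the scalings and count minimums. The members' share of counts does not depend on the scaling, so those alternatives were not run for it. Depth limits members under 500 counts: of the 10 measured ones, the interval of 4 spanned a ratio of 1.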
